A study of Mus musculus with 8 samples.

Results

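Transcripts of the enzymes that build and break down liver glycogen, and of the subunits that bring protein phosphatase 1 (PP1) to the glycogen particle, were followed in mouse liver after delivery of hairpins against Dnajb9 or Rictor. The genes were chosen by name, as the entries Ppp1r3b, Ppp1r3c, Ppp1r3g, Gys2, Pygl, Gbe1, Ugp2, Phkb and Phka2 of the count tables, and all 9 were found among 24062 gene entries. All 9 passed the filter on low counts, which kept 13767 entries for testing. The values are counts of sequencing reads per gene from ribosomal RNA-depleted liver RNA of C57BL/6 mice, 2 libraries in each of 4 groups. shDnajb9 livers received an adenovirus with a short hairpin RNA against Dnajb9, an endoplasmic reticulum co-chaperone, and were set against lacZ1 livers at the age of 3 months. shRictor livers received a hairpin virus against Rictor, a subunit that defines mTOR complex 2, and were set against lacZ2 livers at the age of 4 months. Every mouse was lean and of wild-type genotype apart from the virus, was given 0.1 OD of adenovirus, and was killed 1 week afterwards following food withdrawal for 6 h. The labels do not say what the lacZ viruses carried, nor whether replicate libraries come from different animals, and the p-values below measure only the spread between these libraries.

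Glycogen is a branched glucose polymer that the liver stores after a meal and breaks down to release glucose between meals. UDP-glucose pyrophosphorylase (Ugp2) makes the activated sugar, liver glycogen synthase (Gys2) adds it to the chain, and the branching enzyme (Gbe1) makes the branch points. Liver glycogen phosphorylase (Pygl) shortens the chains and is switched on by phosphorylase kinase, of which Phka2 encodes the liver alpha subunit and Phkb the beta subunit. PP1 acts in the other direction, removing phosphate from synthase and phosphorylase, and the targeting subunits Ppp1r3b (known as GL), Ppp1r3c (known as PTG) and Ppp1r3g hold it at the particle.

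The 9 genes lie on 8 chromosomes of the mouse genome, and only Ppp1r3b and Phkb share one, chromosome 8. In GENCODE M21, on GRCm38, Ppp1r3g spans chr13:35958839-35970388 (plus strand), Gys2 chr6:142422613-142473109 (minus strand) and Pygl chr12:70190811-70231488 (minus strand). For 7 of the 9 symbols a promoter was at hand in the RefSeq table for GRCm38.p6, and 3 are shown. They belong to the targeting subunit that differed most between groups, another that passed the main test in neither hairpin comparison, and the phosphorylase. Each window was taken as the 250 bases before the RefSeq start and cut where a GENCODE exon base of the gene was met. It is written 5′ to 3′ on the strand of the gene. The window of Ppp1r3g is chr13:35967656-35967852 (plus strand, inside an intron of the longer transcript in GENCODE M21), that of Ppp1r3c is chr19:36736654-36736854 (minus strand) and that of Pygl is chr12:70227684-70227933 (minus strand, also inside an intron of a longer GENCODE transcript). The RefSeq start of Ppp1r3g lies 53 bases beyond the end of its window and that of Ppp1r3c 49 bases beyond, since GENCODE exon bases were trimmed from that side, which leaves 197 and 201 of 250 bases. Nothing was trimmed for Pygl. Capitals mark matches on either strand to 5 motifs, namely GTAAACA (core bound by FOXO factors), CACGTG (E-box), TGACGTCA (cyclic AMP response element), TGACG (its partial form, which overlaps the full one) and CCAAT.
Ppp1r3g: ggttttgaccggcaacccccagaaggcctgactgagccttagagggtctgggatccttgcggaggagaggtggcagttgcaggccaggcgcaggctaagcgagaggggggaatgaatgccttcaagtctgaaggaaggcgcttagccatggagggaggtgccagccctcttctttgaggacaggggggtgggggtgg
Ppp1r3c: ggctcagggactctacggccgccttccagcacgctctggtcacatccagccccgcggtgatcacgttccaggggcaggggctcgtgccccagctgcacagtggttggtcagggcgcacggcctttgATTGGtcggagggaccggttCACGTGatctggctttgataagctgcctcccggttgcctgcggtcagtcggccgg
Pygl: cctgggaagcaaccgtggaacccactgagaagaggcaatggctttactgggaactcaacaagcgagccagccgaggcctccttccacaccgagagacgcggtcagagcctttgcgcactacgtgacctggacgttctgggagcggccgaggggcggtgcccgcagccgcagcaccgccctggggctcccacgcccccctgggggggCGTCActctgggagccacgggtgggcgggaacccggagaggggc
None of the 5 motifs occurred in the Ppp1r3g window. The Ppp1r3c window held CACGTG, 104 bases before the RefSeq start, and CCAAT on the opposite strand, 124 bases before it. Of 32851 RefSeq windows trimmed to 201 bases, 4.36% held CACGTG and 28.6% CCAAT. The Pygl window held TGACG on the opposite strand, 44 bases before the RefSeq start, a string found in 17.8% of the windows of 250 bases. These are matches of letters, and no binding was measured.

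Counts assigned to genes numbered 6426164 and 9606030 in shDnajb9 livers, 9791933 and 7830716 in lacZ1 livers, 9255887 and 11383532 in shRictor livers and 6727294 and 10464225 in lacZ2 livers, for replicates 1 and 2. shDnajb9 replicate 1 and lacZ2 replicate 1 stood apart. They had the fewest counts and also the lowest and the highest scaling factor by TMM, the trimmed mean of M values, at 0.7427 and 1.28. Reads that HTSeq left out because they aligned to several places were 41.3% and 41.97% of the shDnajb9 libraries and 22.88% and 24.88% of the lacZ1 libraries, and 32.69% and 26.72% of the shRictor libraries and 24.59% and 24.23% of the lacZ2 libraries. Their part in the results below was not tested. Dnajb9 had 22.0 and 20.3 CPM (counts scaled to a common library size, here TMM-normalised) in shDnajb9 livers and 30.6 and 38.0 CPM in lacZ1 livers, a log2 fold change of -0.70 (SE 0.247, edgeR adjusted p = 0.056). Rictor had 40.1 and 42.0 CPM in shRictor livers and 52.3 and 65.2 CPM in lacZ2 livers, a log2 fold change of -0.52 (SE 0.281, edgeR adjusted p = 0.231). Neither target passed the test, so each group is named by the hairpin it received. All 8 hepatocyte markers were found, and their summed level was 74055 and 58220 CPM in shDnajb9 livers against 37472 and 50746 CPM in lacZ1 livers. It was 57598 and 62903 CPM in shRictor livers against 20355 and 39802 CPM in lacZ2 livers, with lacZ2 replicate 1 the lowest of all. Of these 8 markers, 5 rose in shDnajb9 livers, where 11.6% of all tested genes rose and 12.6% fell, and 3 in shRictor livers, where 7.31% rose and 10.9% fell, and none fell in either. Kupffer cell and macrophage markers summed to 327 and 536 CPM in shDnajb9 livers against 618 and 645 CPM in lacZ1 livers, and to 364 and 477 CPM in shRictor livers against 515 and 675 CPM in lacZ2 livers, with 2 and 1 of 6 falling. Stellate cell markers summed to 227 and 298 CPM in shDnajb9 livers against 514 and 406 CPM in lacZ1 livers, and to 279 and 298 CPM in shRictor livers against 436 and 404 CPM in lacZ2 livers, with 3 and 1 of 6 falling. Summed markers of biliary cells, neutrophils and T and NK cells were also lower under each hairpin without overlap, whereas those of endothelial cells overlapped. The nearest biliary sums were 58.8 CPM in shRictor and 59.3 CPM in lacZ2 livers, where 0 of 5 biliary markers were called. Neutrophil markers were scarce, with sums of at most 5.82 CPM. Skeletal muscle markers, which could bring in muscle forms of glycogen genes, summed to at most 1.27 CPM, and Ckm, a defining one, had no count in any library.

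In both comparisons a targeting subunit of PP1, Ppp1r3g, rose most among the 9 genes. Glycogen synthase was called higher in shRictor livers and just missed a call in shDnajb9 livers. The difference between the hairpin effects was not called for glycogen synthase. Calls rest on the quasi-likelihood test of edgeR, with p-values adjusted by Benjamini-Hochberg over all 13767 genes and a threshold of 0.05. In shDnajb9 livers 1 of the 9 genes was called higher and 0 lower, where 24.2% of all tested genes were called, 11.6% higher and 12.6% lower. In shRictor livers 2 were called higher and 0 lower, where 18.2% of all genes were called, 7.31% higher and 10.9% lower. The median log2 fold change of the 9 genes was 0.11 in shDnajb9 livers, beside -0.05 for all tested genes, and 0.07 in shRictor livers, beside -0.02. With so few genes called, neither share stands out from its background. Scaling by total count alone moved the median of all genes by more than 0.1, to -0.46 in shDnajb9 livers and -0.42 in shRictor livers, and that of the 9 genes to -0.30 and -0.34. Under that scaling the called split was 1 higher and 3 lower in shDnajb9 livers and 2 higher and 2 lower in shRictor livers. TMM-scaled changes are therefore changes relative to the bulk of genes in a library.

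**Figure D1:**
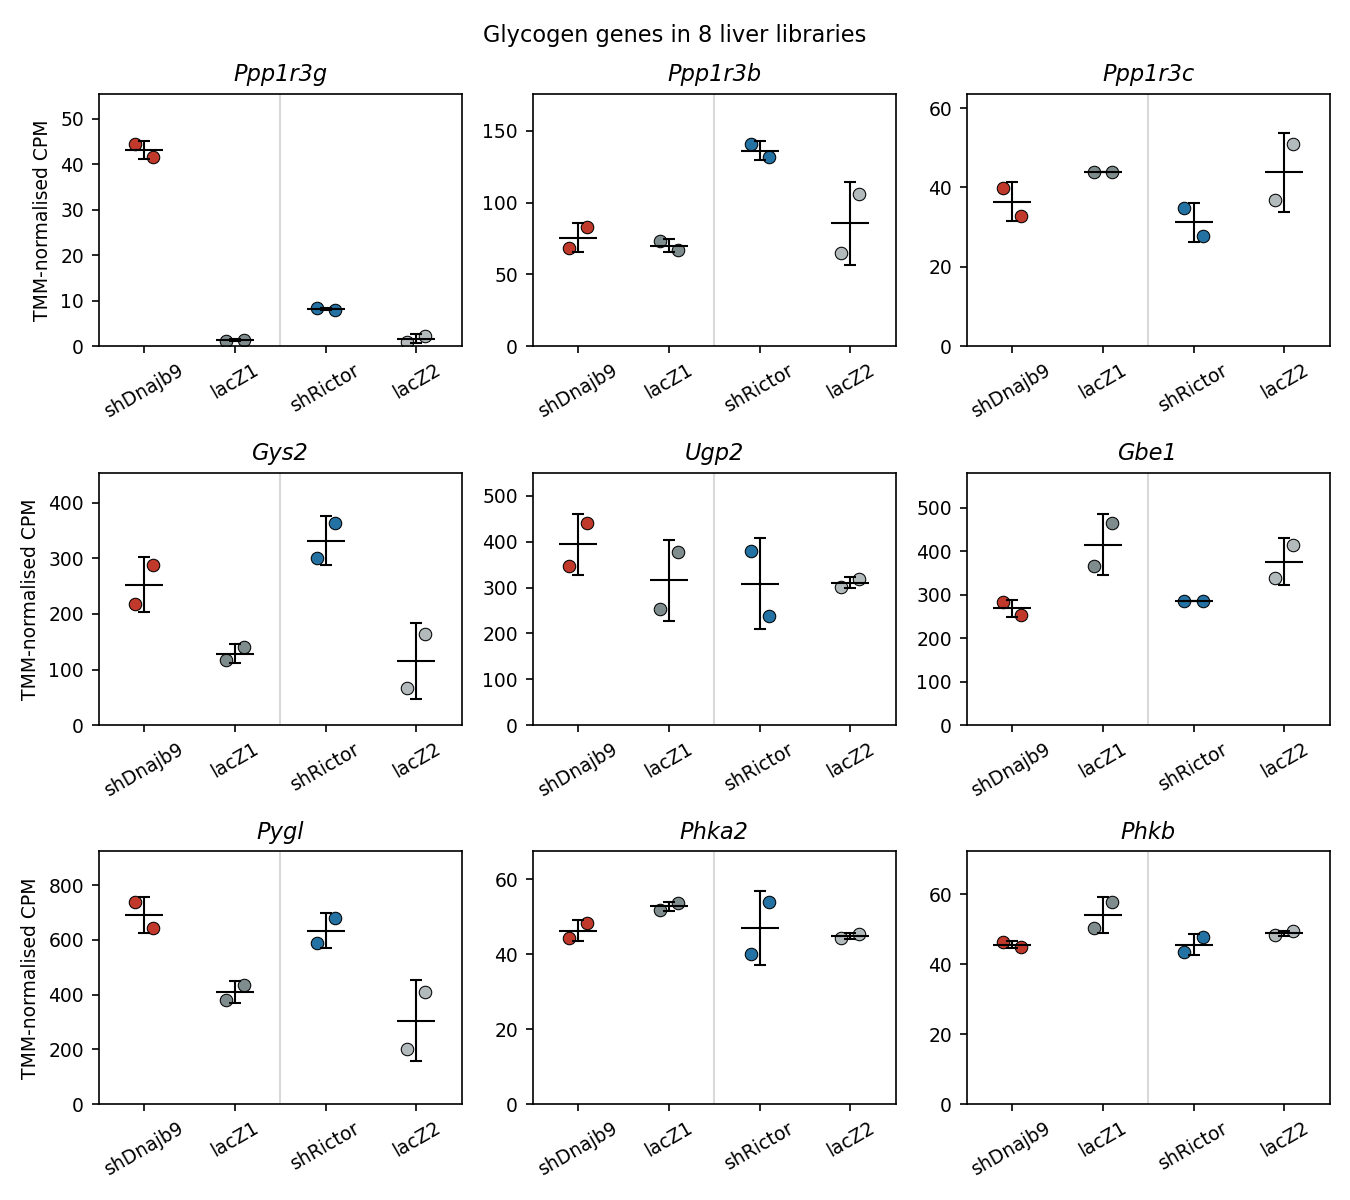
Level of each of the 9 genes in the 8 libraries. Each panel is 1 gene, with TMM-normalised CPM on the y axis, points for the 2 libraries of a group, and a line and bars for their mean and standard deviation. Ppp1r3g lies at 41.7 and 44.4 in shDnajb9 livers against at most 1.43 in lacZ1 livers, while Ugp2 overlaps within each hairpin and lacZ pair.

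Ppp1r3g, a glycogen-targeting subunit of PP1 that promotes glycogen deposition in mouse liver, showed by far the widest range. It had 44.4 and 41.7 CPM in shDnajb9 livers and 1.15 and 1.43 CPM in lacZ1 livers. Behind these levels stood 212 and 365 reads in shDnajb9 livers against 13 and 12 reads in lacZ1 livers. Both shDnajb9 libraries lay far above both controls and close to each other. The fold change was 33.3, a log2 value of 5.06 (SE 0.358, edgeR adjusted p = 1.81e-05), higher in 2 of 2 libraries. Leaving out each library in turn kept the log2 value between 4.87 and 5.2 and the call in all 8 fits.

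In shRictor livers Ppp1r3g had 8.36 and 8.02 CPM, against 0.930 and 2.29 CPM in lacZ2 livers. The reads numbered 71 and 82 in shRictor livers and 8 and 27 in lacZ2 livers. Both shRictor libraries lay above both controls, and lay below both shDnajb9 libraries. The gene rose 4.86-fold, a log2 value of 2.28 (SE 0.35, edgeR adjusted p = 0.000854). The size of the change depended on which control was kept, with a log2 value of 1.83 without lacZ2 replicate 1 (edgeR adjusted p = 0.0108) and 3.13 without lacZ2 replicate 2 (edgeR adjusted p = 0.00112).

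The change of Ppp1r3g under the Rictor hairpin minus that under the Dnajb9 hairpin was -2.78 on the log2 scale (SE 0.517). At an unadjusted p of 0.000122 it did not pass adjustment over all genes in edgeR (adjusted p = 0.163), where 1 gene, 0.00726% of those tested, was called. DESeq2 called it, with an adjusted p of 0.00679, as did edgeR without a filter on low counts, with an adjusted p of 5.09e-05. For the other 8 genes the edgeR adjusted p of this difference lay between 0.579 and 0.888. By the test the hairpin effects thus differed for Ppp1r3g only under those settings, and for none of the other 8 genes in any setting run. Of all genes, DESeq2 called 45 in this comparison and edgeR without a filter 395. The Dnajb9 and Rictor pairs also differ in age, which cannot be told apart from the hairpins in this difference.

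Ppp1r3b, the main targeting subunit of rodent liver, had 68.3 and 82.8 CPM in shDnajb9 livers and 73.1 and 67.0 CPM in lacZ1 livers. These groups overlapped, and the log2 fold change was 0.11 (SE 0.267, edgeR adjusted p = 0.786), with the sign turning under total-count scaling to -0.30. It had 141 and 132 CPM in shRictor livers against 65.0 and 106 CPM in lacZ2 livers. Both shRictor libraries were above every other library, while the lacZ2 libraries lay wide apart. The log2 fold change of 0.67 (SE 0.265, edgeR adjusted p = 0.101) did not pass the test. It depended on which control was kept, at 1.08 without lacZ2 replicate 2 and 0.36 without lacZ2 replicate 1. With total-count scaling it was 0.28 and did not pass.

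Ppp1r3c, which binds synthase and phosphorylase as well as PP1, was at lower values under both hairpins. It had 39.8 and 32.9 CPM in shDnajb9 livers and 43.8 and 43.9 CPM in lacZ1 livers, and 34.7 and 27.8 CPM in shRictor livers and 36.8 and 51.0 CPM in lacZ2 livers. Neither pair of groups overlapped, though the gap between the nearest libraries was small in each. The log2 fold changes of -0.27 (SE 0.245, edgeR adjusted p = 0.427) in shDnajb9 livers and -0.49 (SE 0.244, edgeR adjusted p = 0.188) in shRictor livers did not pass. With total-count scaling they were -0.71 and -0.88 and passed, with edgeR adjusted p-values of 0.0422 and 0.0202.

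Counted per kilobase of exon, so that the subunits can be set side by side, Ppp1r3g stood at 17.1 ± 0.777 CPM per kb in shDnajb9 livers and 0.513 ± 0.0782 CPM per kb in lacZ1 livers (SD, n = 2 each). It took 37.3% and 35.3% of the summed level of the 3 targeting subunits in shDnajb9 livers, against 1.40% and 1.81% in lacZ1 livers. The share was 7.05% and 7.53% in shRictor livers and 1.31% and 2.11% in lacZ2 livers. In the control livers the sum was thus almost wholly Ppp1r3b and Ppp1r3c. Ppp1r3b took 31.8% and 38.9% of it in shDnajb9 livers against 49.3% and 46.9% in lacZ1 livers, but 65.9% and 68.4% in shRictor livers against 50.8% and 54.3% in lacZ2 livers. Its share was therefore lower under the Dnajb9 hairpin and higher under the Rictor hairpin, without overlap in either pair. The 3 shares are parts of the same sum, so a higher share of Ppp1r3g lowers the others. The level of Ppp1r3b itself overlapped between shDnajb9 and lacZ1 livers. Ppp1r3c took 30.9% and 25.8% in shDnajb9 livers against 49.3% and 51.3% in lacZ1 livers, and 27.1% and 24.1% in shRictor livers against 47.9% and 43.6% in lacZ2 livers. The summed level was 47.3 and 46.8 CPM per kb in shDnajb9 livers against 32.6 and 31.4 CPM per kb in lacZ1 livers. It was 47.1 and 42.3 CPM per kb in shRictor livers and 28.2 and 42.9 CPM per kb in lacZ2 livers, which overlapped. These shares are descriptions of 2 libraries a group, with no test.

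**Figure D2:**
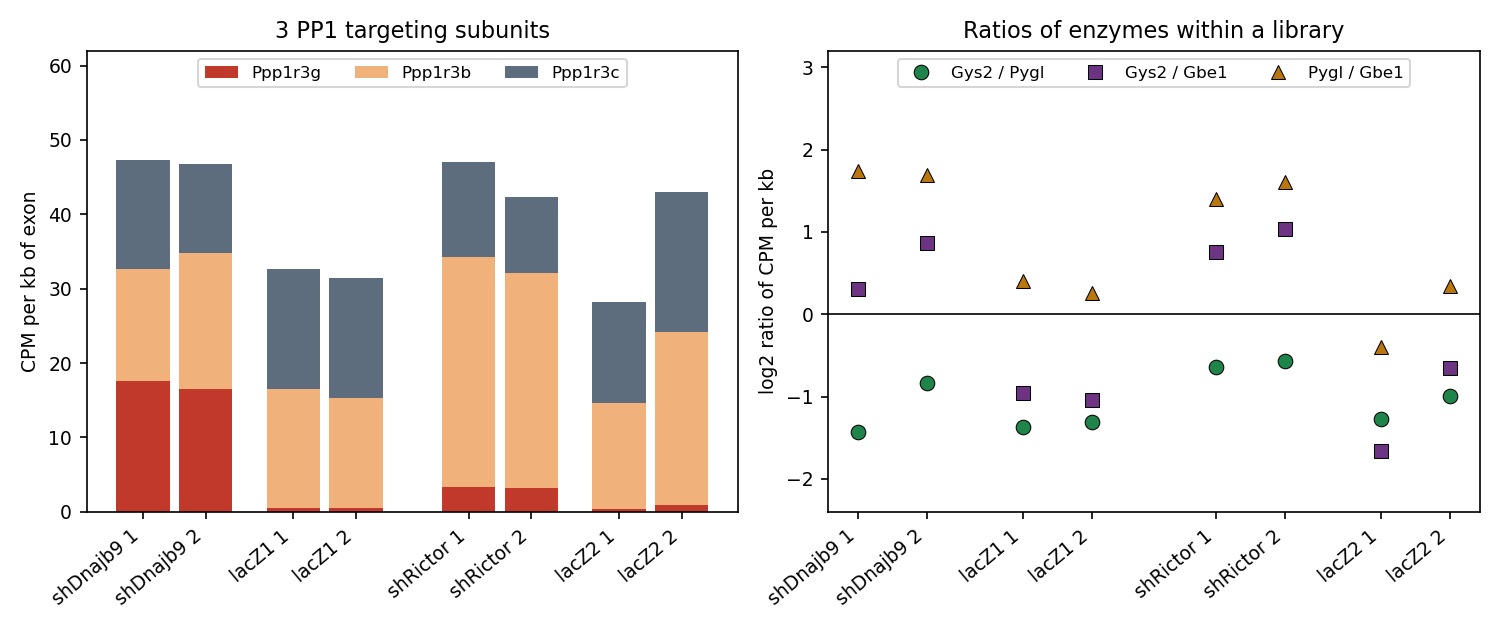
Targeting subunits and enzyme ratios within each library. The left panel gives the level of Ppp1r3b, Ppp1r3c and Ppp1r3g in CPM per kb of exon, and the right panel the log2 ratio of enzymes per kb, for each of the 8 libraries on the x axis. Ppp1r3g makes up 37.3% and 35.3% of the 3 subunits in shDnajb9 livers and at most 2.11% in lacZ livers.

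Among the synthesis enzymes, Gys2, the glycogen synthase of liver, rose in shRictor livers. It had 301 and 364 CPM in shRictor livers against 66.4 and 164 CPM in lacZ2 livers. Both shRictor libraries were above both controls, of which replicate 1 was the lowest library of the study for this gene. The rise was 2.89-fold, a log2 value of 1.53 (SE 0.38, edgeR adjusted p = 0.0149). The call was lost without shRictor replicate 2 (log2 value 1.38, edgeR adjusted p = 0.0739) and without lacZ2 replicate 1 (1.02, edgeR adjusted p = 0.101), and the value was 2.33 without lacZ2 replicate 2 (edgeR adjusted p = 0.00237). With shDnajb9 replicate 1 and lacZ2 replicate 1 both left out it was 1.02 and passed (edgeR adjusted p = 0.0456).

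In shDnajb9 livers Gys2 had 218 and 288 CPM, against 117 and 140 CPM in lacZ1 livers. The groups did not overlap, and the log2 fold change of 0.97 (SE 0.376, edgeR adjusted p = 0.0742) just missed the threshold. It passed with DESeq2 (adjusted p = 0.0313) and without the libraries that stood apart (log2 value 1.16, edgeR adjusted p = 0.0197), but not without shDnajb9 replicate 1 alone (log2 value 1.16, edgeR adjusted p = 0.121), and was 0.57 with total-count scaling (edgeR adjusted p = 0.24). Without shDnajb9 replicate 2, lacZ1 replicate 1 or lacZ1 replicate 2 the edgeR adjusted p was 0.211, 0.358 and 0.154, and without lacZ2 replicate 1 or lacZ2 replicate 2 it was 0.0289 and 0.0288. Hepatocyte markers moved the same way in both comparisons, and their part in the level of Gys2 was not tested. In whole-liver RNA, fewer cells of a type and less RNA per cell cannot be told apart.

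Ugp2, which makes UDP-glucose, had 348 and 441 CPM in shDnajb9 livers and 253 and 378 CPM in lacZ1 livers, and 379 and 238 CPM in shRictor livers and 302 and 319 CPM in lacZ2 livers. The groups of each pair overlapped. The log2 fold changes were 0.32 (SE 0.333, edgeR adjusted p = 0.494) in shDnajb9 livers, turning to -0.08 with total-count scaling, and -0.01 (SE 0.332, edgeR adjusted p = 0.989) in shRictor livers. Exons of Ugp2 overlap an antisense transcript, Gm12043, by 78 bases, and the strand setting of the counting is not given, so a few reads could belong to either.

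Gbe1, the branching enzyme, was at lower values under both hairpins. It had 283 and 254 CPM in shDnajb9 livers and 366 and 465 CPM in lacZ1 livers, and 286 and 285 CPM in shRictor livers and 338 and 414 CPM in lacZ2 livers. All 4 hairpin libraries lay below all 4 lacZ libraries. The log2 fold changes of -0.63 (SE 0.293, edgeR adjusted p = 0.128) and -0.40 (SE 0.292, edgeR adjusted p = 0.393) did not pass. With total-count scaling they were -1.06 and -0.79 and passed, with edgeR adjusted p-values of 0.0108 and 0.0342.

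Pygl, the phosphorylase that releases glucose-1-phosphate from liver glycogen, had the highest level per kb of the 9 genes in shDnajb9, lacZ1 and shRictor livers and lay below Ugp2 in lacZ2 livers. It had 739 and 644 CPM in shDnajb9 livers and 380 and 437 CPM in lacZ1 livers, and 590 and 679 CPM in shRictor livers and 201 and 410 CPM in lacZ2 livers. All 4 hairpin libraries were above all 4 lacZ libraries. Its log2 fold change was 0.76 (SE 0.365, edgeR adjusted p = 0.14) in shDnajb9 livers. In shRictor livers it was 1.05 (SE 0.367, edgeR adjusted p = 0.0636), which passed with DESeq2 (adjusted p = 0.00905) and without lacZ2 replicate 2 (log2 value 1.67, edgeR adjusted p = 0.0101) and fell short without lacZ2 replicate 1 (0.63, edgeR adjusted p = 0.298).

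The phosphorylase kinase subunits varied least. Phka2, the liver alpha subunit, had 44.2 and 48.2 CPM in shDnajb9 livers and 51.9 and 53.7 CPM in lacZ1 livers, and 40.03 and 53.9 CPM in shRictor livers and 44.3 and 45.5 CPM in lacZ2 livers. Phkb, the beta subunit, had 46.3 and 45.0 CPM in shDnajb9 livers and 50.4 and 57.8 CPM in lacZ1 livers, and 43.6 and 47.7 CPM in shRictor livers and 48.3 and 49.4 CPM in lacZ2 livers. Phkb was below the controls without overlap in each pair and Phka2 in the Dnajb9 pair alone. The control groups separated as well, with Phka2 and Phkb lower in lacZ2 than in lacZ1 livers without overlap. Those log2 differences were -0.23 for Phka2 and -0.15 for Phkb, and neither passed the edgeR test. Log2 fold changes of Phka2 were -0.19 (SE 0.227) and 0.07 (SE 0.226), and those of Phkb -0.25 (SE 0.215) and -0.10 (SE 0.214), with edgeR adjusted p-values between 0.415 and 0.876. With total-count scaling Phkb passed in shDnajb9 livers (log2 value -0.67, edgeR adjusted p = 0.0409) and Phka2 turned to -0.34 in shRictor livers. An antisense transcript, Gm15243, overlaps exons of Phka2 by 115 bases.

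Separation of libraries, a looser measure than the test, was common among all genes. In shDnajb9 livers 3 of the 9 genes lay wholly above lacZ1 and 4 wholly below, where 32.4% and 35.1% of all tested genes did. In shRictor livers 4 lay wholly above lacZ2 and 3 wholly below, where 28.8% and 31.6% did. All 4 hairpin libraries were above all 4 lacZ libraries for Ppp1r3g, Gys2 and Pygl, and below them for Gbe1 and Phkb. For Phkb the nearest libraries stood at 47.7 CPM in shRictor livers and 48.3 CPM in lacZ2 livers. The share of all tested genes that separated in this way was not counted, so no weight rests on it.

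**Figure D3:**
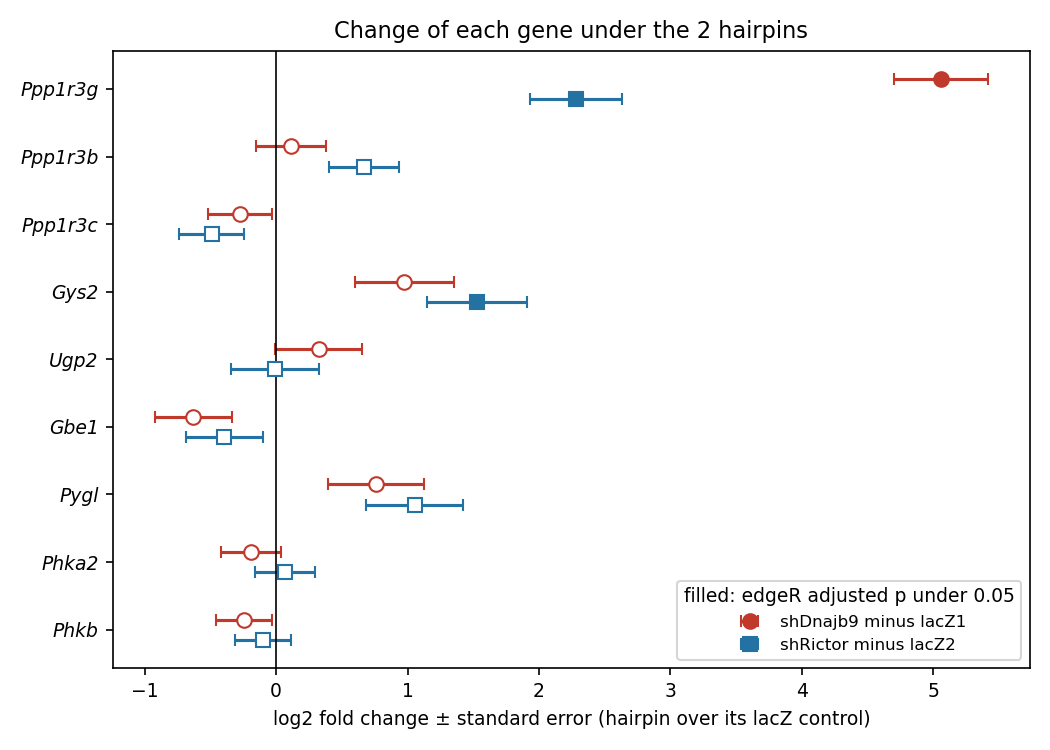
Change of each of the 9 genes under the 2 hairpins. The x axis is the log2 fold change of the hairpin group over its own lacZ control, circles are shDnajb9 minus lacZ1, squares are shRictor minus lacZ2, bars are standard errors, and filled symbols have an edgeR adjusted p under 0.05. The filled symbols are Ppp1r3g at 5.06 and 2.28 and Gys2 at 1.53 in shRictor livers.

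Ratios within a library do not depend on the scaling between libraries. Set against the branching enzyme per kb, synthase had a log2 ratio of 0.31 and 0.86 in shDnajb9 livers against -0.96 and -1.04 in lacZ1 livers. The ratio was 0.76 and 1.04 in shRictor livers and -1.66 and -0.65 in lacZ2 livers. Per kb, Gys2 thus exceeded Gbe1 in every hairpin library and lay below it in every lacZ library. Without division by exon length, shDnajb9 replicate 1 had 218 CPM of Gys2 and 283 CPM of Gbe1. Phosphorylase over branching enzyme gave log2 ratios of 1.74 and 1.69 in shDnajb9 livers against 0.41 and 0.26 in lacZ1 livers, and 1.40 and 1.60 in shRictor livers against -0.40 and 0.34 in lacZ2 livers. The balance of synthase to phosphorylase moved less. Its log2 ratio was -1.43 and -0.83 in shDnajb9 livers and -1.37 and -1.31 in lacZ1 livers, which overlapped, and -0.64 and -0.57 in shRictor livers and -1.27 and -0.99 in lacZ2 livers, which did not. Phkb over Phka2 stayed between -0.26 and 0.04 in all 8 libraries. These ratios are descriptions with no test. The share of all gene pairs whose ratio separates in this way was not counted, so no weight rests on the separation.

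By group mean, Ppp1r3g ran in the order shDnajb9, shRictor, lacZ2, lacZ1 from high to low, with overlap only between the lacZ groups. Gys2 ran shRictor, shDnajb9, lacZ1, lacZ2, again with overlap only between the lacZ groups. Pygl ran shDnajb9, shRictor, lacZ1, lacZ2, and only the step between the hairpin and the lacZ groups was free of overlap. Ppp1r3b ran shRictor, lacZ2, shDnajb9, lacZ1, with shRictor alone clear of its neighbour. Gbe1 ran lacZ1, lacZ2, shRictor, shDnajb9, and overlapped only between the lacZ groups. Ppp1r3c ran lacZ2, lacZ1, shDnajb9, shRictor, and was free of overlap only between lacZ1 and shDnajb9. Phkb ran lacZ1, lacZ2, shDnajb9, shRictor, and overlapped only between the hairpin groups. For Ugp2 and Phka2 every pair of neighbours overlapped. The shDnajb9 and lacZ1 livers differ in age from the shRictor and lacZ2 livers. Steps that cross these sets therefore cannot be read as differences between the hairpins. For Gys2 the difference between the hairpin effects, each against its own control, was 0.55 (SE 0.527, edgeR adjusted p = 0.71). The share of all tested genes free of overlap at steps across the sets was not counted, so no weight rests on the order.

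Between the control groups none of the 9 genes differed by the test. The log2 difference of lacZ2 minus lacZ1 ran from -0.42 for Pygl to 0.39 for Ppp1r3g, with SE values of 0.363 and 0.433. Of all genes, 0% were called by edgeR in this comparison, 169 had an unadjusted p under 0.05, none of them among the 9, and DESeq2 called 1. By the labels lacZ2 and lacZ1 livers differ in age, which cannot be told apart from anything else that differed between the control groups.

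Over the 8 libraries the log2 CPM of Gys2 and Pygl had a Pearson r of 0.926, that of Gbe1 and Phkb 0.881, and that of Ppp1r3g and Gbe1 -0.797. These are descriptions over 8 libraries that fall into hairpin and lacZ groups and share their scaling. Among 11689 genes searched, those most like Ppp1r3g were Rmdn2 (r = 0.995), Magt1 (r = 0.988) and Fahd2a (r = 0.988), and 142 genes had an r above 0.95. Gys2 was most like Mug1 (r = 0.994), Tmem135 (r = 0.994) and Aqp9 (r = 0.993), with 117 genes above 0.95. Ppp1r3b had only 4 such genes, among them Rnf19b (r = 0.954) and Ddhd2 (r = 0.953). Ppp1r3c had 3, namely Gimap7 (r = 0.975), Anxa4 (r = 0.954) and Ecm2 (r = 0.952).

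Other genes that act on glycogen were taken from 4 lists holding 44 genes, of which 41 were tested. In shDnajb9 livers 6 rose and 6 fell, where 11.6% of all tested genes rose and 12.6% fell. In shRictor livers 5 rose and 3 fell, where 7.31% of all tested genes rose and 10.9% fell. These counts are close to the background. With total-count scaling the split was 2 higher and 11 lower in shDnajb9 livers and 3 higher and 6 lower in shRictor livers. None of the 41 was called in the difference between the hairpin effects. Of 14 other glycogen enzymes and glycogen-bound proteins, 13 were tested, with 1 rising and 3 falling in shDnajb9 livers and 0 rising and 2 falling in shRictor livers. Their median log2 fold change was -0.22 in shDnajb9 livers and -0.0047 in shRictor livers, beside -0.05 and -0.02 for all genes.

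Pygb, the phosphorylase form named for brain, had 16.1 and 19.4 CPM in shDnajb9 livers against 75.4 and 71.0 CPM in lacZ1 livers. It had 14.4 and 19.6 CPM in shRictor livers against 74.6 and 77.4 CPM in lacZ2 livers. Pygb fell in both, with log2 fold changes of -2.03 (SE 0.244, edgeR adjusted p = 0.000182) and -2.16 (SE 0.242, edgeR adjusted p = 0.000151), and was called in all 8 fits that left out a library. The log2 fold changes of Pygl, the liver form, were positive in each comparison. Markers of Kupffer and stellate cells moved the same way as Pygb, and their part in its level was not tested.

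Gys1, the synthase of muscle and most other tissues, had 3.14 and 3.08 CPM in shDnajb9 livers against 9.04 and 6.32 CPM in lacZ1 livers, and fell by 1.31 (SE 0.326, edgeR adjusted p = 0.0128) on the log2 scale. That call was lost without shDnajb9 replicate 1 (log2 value -1.32, edgeR adjusted p = 0.0547) and without lacZ1 replicate 1 (-1.04, edgeR adjusted p = 0.144). Epm2a, the glycogen phosphatase laforin, rose in shDnajb9 livers by a log2 value of 1.11 (edgeR adjusted p = 0.0409), a call lost without shDnajb9 replicate 1 (0.80, edgeR adjusted p = 0.248), without lacZ1 replicate 1 (1.22, edgeR adjusted p = 0.153) or lacZ1 replicate 2 (0.99, edgeR adjusted p = 0.151), and under total-count scaling (0.67, edgeR adjusted p = 0.186). The entry named Pgm1, of the phosphoglucomutase family, had 6.36 and 6.65 CPM in shRictor livers against 14.3 and 15.8 CPM in lacZ2 livers. It fell by 1.21 (SE 0.25, edgeR adjusted p = 0.00532) on the log2 scale. The gene annotation behind the counts is not given. Which phosphoglucomutase gene this symbol stands for, and so its part in glycogen metabolism, was not checked. Of the PP1 list, which holds the catalytic subunits, inhibitors and remaining targeting subunits, 7 of 9 genes were tested and none was called in either comparison.

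Among 13 receptors, kinases and calmodulin genes, 2 rose and 1 fell in shDnajb9 livers and 2 rose and 0 fell in shRictor livers, where 24.2% and 18.2% of all tested genes were called. Adra1b, an adrenergic receptor through which catecholamines start glycogen breakdown in liver, had 74.4 and 67.8 CPM in shDnajb9 livers against 37.9 and 30.05 CPM in lacZ1 livers, and 83.8 and 89.5 CPM in shRictor livers against 31.3 and 33.3 CPM in lacZ2 livers. Adra1b rose in both, by log2 values of 1.06 (edgeR adjusted p = 0.00566) and 1.42 (edgeR adjusted p = 0.00103). The call in shDnajb9 livers was lost without lacZ1 replicate 2 (0.90, edgeR adjusted p = 0.0653) and with total-count scaling (0.62, edgeR adjusted p = 0.0609). Gcgr, the glucagon receptor, rose in shDnajb9 livers by a log2 value of 1.03 (edgeR adjusted p = 0.0144), a call lost without shDnajb9 replicate 1 (0.90, edgeR adjusted p = 0.0707), lacZ1 replicate 1 (0.99, edgeR adjusted p = 0.14) or lacZ1 replicate 2 (1.04, edgeR adjusted p = 0.0837), and with total-count scaling (0.60, edgeR adjusted p = 0.0732). Insr, the insulin receptor, rose in shRictor livers (log2 value 1.24, edgeR adjusted p = 0.0333), a call lost without shRictor replicate 2 (0.79), lacZ2 replicate 1 (1.253) or lacZ2 replicate 2 (1.23), and with total-count scaling (0.82).

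Among 8 genes of glucose uptake, phosphorylation and release, 3 rose and 2 fell in shDnajb9 livers, where 11.6% of all tested genes rose and 12.6% fell. In shRictor livers 3 rose and 1 fell, where 7.31% rose and 10.9% fell. G6pc, the catalytic subunit of glucose-6-phosphatase, had 770 and 989 CPM in shDnajb9 livers against 199 and 243 CPM in lacZ1 livers. It had 993 and 831 CPM in shRictor livers against 86.5 and 248 CPM in lacZ2 livers. G6pc rose by log2 values of 1.99 (SE 0.444, edgeR adjusted p = 0.00749) and 2.45 (SE 0.452, edgeR adjusted p = 0.00276), and the call in shDnajb9 livers was lost without lacZ1 replicate 1 (1.83, edgeR adjusted p = 0.0972). Slc37a4, which carries glucose-6-phosphate to that enzyme, had 287 and 279 CPM in shDnajb9 livers against 87.5 and 88.4 CPM in lacZ1 livers, and 230 and 255 CPM in shRictor livers against 48.6 and 96.7 CPM in lacZ2 livers. Slc37a4 rose by log2 values of 1.69 (SE 0.320, edgeR adjusted p = 0.00306) and 1.74 (SE 0.320, edgeR adjusted p = 0.00275), and both calls held in all 8 fits that left out a library. Gckr, the glucokinase regulator, rose by log2 values of 1.01 in shDnajb9 livers and 0.84 in shRictor livers, with edgeR adjusted p-values of 0.0163 and 0.0418. The first call was lost without lacZ1 replicate 1 (1.03) or lacZ1 replicate 2 (0.97). The other call of Gckr was lost without either lacZ1 library (0.85 for each), without either shRictor library (0.95 and 0.72) and without lacZ2 replicate 1 (0.60), and both were lost with total-count scaling (0.59 and 0.45). Hk2, a hexokinase scarce in adult hepatocytes, fell by 1.98 on the log2 scale in shDnajb9 livers, a call lost without lacZ1 replicate 1 (-1.62). In shRictor livers Hk2 fell by 1.5 on the log2 scale, a call lost without any 1 of the lacZ1, shRictor and lacZ2 libraries (values between -1.92 and -1.185). Hk1 fell by 1.19 in shDnajb9 livers, a call lost without shDnajb9 replicate 1 (-0.98) or lacZ1 replicate 1 (-0.62).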

How the data were processed

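Liver RNA was sequenced in 8 libraries, 2 in each of 4 groups. The deposited values are raw counts per gene symbol, made by the authors with HTSeq on genome build mm10 after trimming with cutadapt, per the submitters' processing notes. The aligner, tool versions, gene annotation and strand setting are not given in the sources used here. Rows that name no gene (no feature, ambiguous, not aligned uniquely) were left out of library sizes, and reads without a unique alignment made up 22.88% to 41.97% of each library. Another 27 entries carry a calendar date as a name.

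The count model was fitted with edgeR 4.0.16 under R 4.3.3: filterByExpr with a minimum count of 10, TMM scaling, and 1 robust quasi-likelihood fit of 4 group means to all 8 libraries (4 residual degrees of freedom, common biological coefficient of variation 0.209). The F test compared each hairpin group with its own control, the hairpin effects with each other, and lacZ2 with lacZ1, with Benjamini-Hochberg adjustment over 13767 genes. Adjusted p-values from edgeR, DESeq2 1.42.0 and limma 3.58.1 are model-based, since 2 libraries a group allow no exact permutation test under 0.05. Levels per kb use exon lengths of GENCODE M21. Replicates differed beyond sampling noise (chi-square per degree of freedom 18.2 to 51.98), so none were merged. The procedure was tested on simulated data in which few genes changed, which does not bear on the choice of scaling. Named beside the 9 genes and both targets are members of 4 pathway lists called in either hairpin comparison, at most 4 a list and comparison, and the 3 genes most like each of 4 members among well-expressed, named genes. A few genes named by these criteria are not reported here. The genes and lists were chosen with earlier results of these data known. Alternatives were scaling by RLE or by total count, no filter or a filter of 2 CPM in 2 libraries, moderation that was not robust, dropping the 10 most abundant genes, DESeq2, limma-voom, a replicate block, a fit of only the libraries compared, and leaving out each library or the 2 that stood apart. Where that left 1 library in a group, its spread was taken from the other groups.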

Additional observations from a re-analysis of the deposited data

Results flagged for a closer look

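Reads without a unique alignment, which enter no gene count, made up a larger share of every hairpin library than of any lacZ library. The share was 41.3% and 41.97% in shDnajb9 livers against 22.88% and 24.88% in lacZ1 livers, and 32.69% and 26.72% in shRictor livers against 24.59% and 24.23% in lacZ2 livers. Whether it bears on the counts of Ppp1r3g, Gys2 or the other genes was not tested. Of the 9 genes, at most 0.948% of the 50-base stretches, in Ugp2, also occurred in another gene.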

How the results depend on the processing

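The rise of Ppp1r3g passed the test under every alternative run, in both hairpin comparisons. The number of the 9 genes called in shDnajb9 livers was 1, and 2 without a filter, with DESeq2, with only the libraries compared, and without the 2 libraries that stood apart (1678 genes called in all, against 3325). It was 4 with total count only. In shRictor livers it was 2, and 3 without a filter, with DESeq2 and with limma-voom, and 4 with total count only. That scaling also turned the split of all called genes in shDnajb9 livers to 610 higher and 3354 lower, against 1597 and 1728, and in shRictor livers to 436 and 2810, against 1006 and 1502.

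For the difference between the hairpin effects, 1 gene was called, against 395 without a filter, 45 with DESeq2 and 0 without the 2 libraries, and 1 of the 9 genes was called without a filter and with DESeq2. Between lacZ2 and lacZ1, 0 genes were called, against 13 without a filter, 1 with DESeq2 and 1 with only the libraries compared. Signs turned for some changes, none of which passed in the main fit. In shDnajb9 livers, total count gave -0.30 for Ppp1r3b and -0.0766 for Ugp2. In shRictor livers, Phka2 was -0.34 with total count and Ugp2 was 0.0122 with RLE factors and 0.0122 with DESeq2. Without the 2 libraries, the difference between the hairpin effects was -0.14 for Gys2, against 0.55 in the main fit, and -0.0282 for Pygl. In that fit lacZ2 minus lacZ1 was 0.35 for Gys2, 0.0051 for Pygl and 0.0176 for Ugp2, again without the 2 libraries. Between the lacZ groups Ugp2 was 0.10 with total count, and Ppp1r3c was -0.0053 without a filter and -0.0206 with limma-voom. The cause was not tested.

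Leaving out 1 library at a time gave 988 to 4157 called genes in shDnajb9 livers and 1062 to 2975 in shRictor livers, 0 to 17 for the difference and 0 to 1 for lacZ2 minus lacZ1. Of the 9 genes, 1 to 2 were called in shDnajb9 livers, 1 to 4 in shRictor livers, and 0 to 0 in the other 2 comparisons. The 4157 arose without shDnajb9 replicate 2 and the 988 without lacZ1 replicate 1. Signs turned within -0.0366 to 0.24 for Ppp1r3b in shDnajb9 livers, and in shRictor livers within -0.38 to 0.29 for Ugp2 and -0.17 to 0.26 for Phka2. In the difference they turned within -0.42 to 0.0661 for Ppp1r3c and -0.11 to 0.93 for Pygl. In lacZ2 minus lacZ1 they turned within -0.11 to 0.60 for Ppp1r3b, -0.26 to 0.22 for Ppp1r3c, -0.46 to 0.84 for Ppp1r3g, -0.96 to 0.35 for Gys2, -1.03 to 0.0087 for Pygl, -0.32 to 0.0457 for Gbe1 and -0.29 to 0.30 for Ugp2.

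Groups share replicate numbers, but with 2 pairs a group the numbers were not shown to pair the libraries (correlation of same-numbered deviations -0.30 for shDnajb9 and lacZ1, -0.03 for shRictor and lacZ2). With a replicate block, 3289 genes and 2 of the 9 were called in shDnajb9 livers (Gys2 log2 value 0.96, edgeR adjusted p = 0.0441) and 2470 genes in shRictor livers, where Ugp2 turned to 0.0013, with 3 for the difference and 0 for lacZ2 minus lacZ1. A block on crossed numbers, chosen after seeing the data, called 2992 genes and 1 of the 9 in shDnajb9 livers (Gys2 log2 value 1.01, edgeR adjusted p = 0.0676). With 2 libraries a group, small changes were not detectable, and the median standard error was 0.293 in shDnajb9 livers and 0.288 in shRictor livers.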
